A study of Mus musculus with 6 samples.

Results

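Ras exchange factors and Ras GTPase-activating proteins (GAPs) were examined at the transcript level in germinal centre B cells of mouse spleen. The 10 genes were chosen by symbol among the 23420 genes listed: 8 exchange factors (Rasgrf1, Rasgrf2, Rasgrp1 to Rasgrp4, Sos1 and Sos2) and 2 GAPs (Rasa1 and Rasal3). The choice was made with the difference of Rasgrf2 between KO and WT already known. Whether Rasgrf2 was called in a fit over all genes is given below as a description, and is no valid test of its difference. The cells were purified by bead enrichment of B cells and sorting on day 10 after intraperitoneal immunization with NP-KLH, a hapten on a carrier protein. The 3 KO libraries came from BASP1 fl/fl hCD20TamCre+/- mice and the 3 WT libraries from BASP1 +/+ hCD20TamCre+/- mice. Mice of both groups thus carried hCD20TamCre, known as a tamoxifen-activated Cre under human CD20 control elements for use in B cells, and received 1 mg tamoxifen on day 5, day 7 and day 9. Age and sex of the mice, and whether each library came from a separate mouse, are not given in the labels. Any p-value therefore measures only the spread between these libraries, drawn mainly from other genes of similar level.

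Ras proteins are membrane-bound switches that signal to the RAF, MEK and ERK kinases while loaded with GTP. Exchange factors load them and GAPs unload them. In B cells, antigen receptor engagement activates phospholipase C gamma, which produces diacylglycerol and releases calcium. RasGRP proteins respond to diacylglycerol and calcium, RasGRF proteins to calcium with calmodulin, and SOS proteins are brought to the membrane by the adaptor GRB2. BASP1, the product of the targeted gene, is a myristoylated membrane protein that binds calmodulin and also acts as a transcriptional co-repressor.

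The values were log2 CPM, where CPM are read counts scaled to a common library total,, from which any difference between replicate numbers had been removed. For every gene the KO and WT values of the same number had equal sums to within 0.001. KO and WT therefore have equal SDs by construction. Each gene has a mean level and 3 paired differences, whose mean and SD (n = 3 pairs) are given below. For the same reason the groups do not overlap whenever the 3 differences have the same sign. The most common value, -5.063 log2 CPM, is called the floor, and read depth per library is unknown. Of the 10133 genes with a geometric mean of at least 1 CPM, 27 (0.266%) passed 5% FDR in limma, 17 higher and 10 lower in KO. The balance of directions depended on the pairs: leaving out replicate pair 1 gave 27 higher and 109 lower, leaving out pair 2 gave 4 higher and 7 lower, and leaving out pair 3 gave 28 higher and 71 lower. Basp1 was lower in every KO library, at 3.27, 2.86 and 3.23 log2 CPM, than in the WT libraries, at 5.49, 5.89 and 5.52 (difference -2.51 ± 0.45, limma adjusted p = 3.3e-16). All 6 B cell markers and all 9 germinal centre markers of fixed lists lay at or above 1 CPM. The B cell markers summed to 8336 to 8653 CPM in WT and 7813 to 8110 CPM in KO, lower in KO in each pair (log2 ratios of -0.15, -0.07 and -0.04), and their part in the results below was not tested. The germinal centre markers summed to 4360 to 4518 CPM in WT and 4216 to 4370 CPM in KO. The sums were 2104 to 2315 CPM in WT and 1973 to 2159 in KO for plasma cell markers, and 480 to 538 and 514 to 576 CPM for naive and follicular markers. For myeloid markers they were 11.0 to 15.1 and 9.19 to 12.6 CPM, for erythroid markers 0.570 to 0.943 and 1.06 to 1.88 CPM, and for NK cell markers at most 0.526 CPM in any library.

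Rasgrf2 was the member that differed most between the groups in relation to its spread. It encodes an exchange factor with a calmodulin-binding IQ motif that acts on Ras and, through a second catalytic domain, on Rac. The 3 WT libraries held 1.88, 1.77 and 1.94 CPM (0.91, 0.82 and 0.95 log2 CPM). The 3 KO libraries held 4.40, 4.66 and 4.26 CPM (2.14, 2.22 and 2.09 log2 CPM). Every KO library lay above every WT library, as in 15.2% of all tested genes. Given the equal pair sums, this states only that the 3 paired differences were all positive. The spread within a group likewise follows from that of the paired differences. The paired differences were 1.23, 1.40 and 1.14 on the log2 scale, a mean of 1.25 ± 0.13 (SD, n = 3 pairs), which is a KO level 2.39 times the WT level. It was the 11th largest positive difference among the 10133 genes tested. At levels within 1.5-fold of that of Rasgrf2 lay 775 genes including itself. The median SD of their paired differences was 0.354, and 91.2% of them had a larger SD than Rasgrf2. Because Rasgrf2 was chosen with its difference known, its rank and small SD are descriptions and no support. These libraries are bulk samples, in which a change in the share of cells of a type cannot be told apart from a change of RNA per cell. The nuclear non-coding RNA list differed by -0.35, -1.09 and 0.37 (log2 ratio of summed CPM) in pairs 1, 2 and 3. It was listed as a sign of RNA quality, but most of its sum came from Malat1 (mean 8.62 log2 CPM). Meg3 and Snhg11 were at the floor in all 6 libraries. The part of this list in the Rasgrf2 values was not tested.

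Rasgrf1, the paralogue of Rasgrf2, is an imprinted gene best known from neurons. It was listed at -4.02, -4.10 and -2.98 log2 CPM in WT and at -2.74, -2.65 and -3.77 in KO, between 0.0582 and 0.159 CPM. It lay above the floor but below 1 CPM in all 6 libraries, and was not tested. KO was higher in pairs 1 and 2 (1.28 and 1.45) and lower in pair 3 (-0.79), so that the mean of 0.65 was smaller than its SD of 1.25. The Rasgrf2 level exceeded that of Rasgrf1 by 3.94 to 5.87 on the log2 CPM scale in the 6 libraries.

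**Figure D1:**
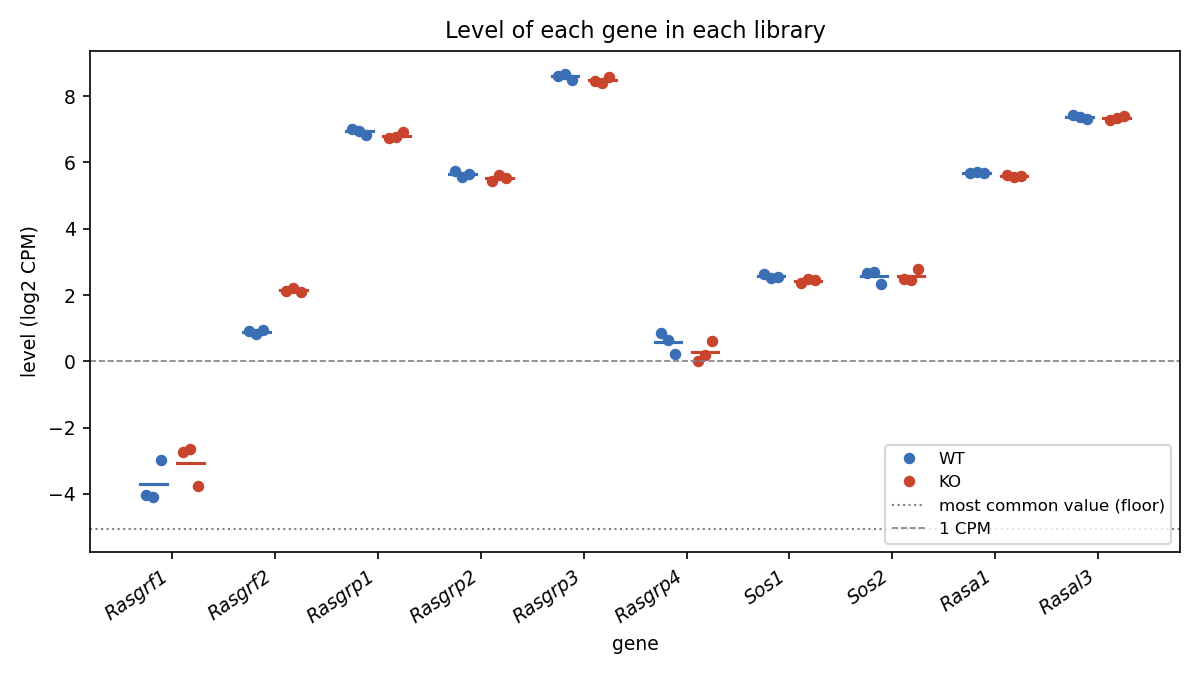
Level of each of the 10 genes in each library (y axis, log2 CPM; points, the 3 WT and 3 KO libraries; short bars, group means). The dashed line marks 1 CPM and the dotted line the floor of -5.063. Rasgrf2 shows 3 KO points (2.09 to 2.22) above 3 WT points (0.82 to 0.95), and Rasgrf1 lies far below the other genes.

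In GENCODE vM21, on build GRCm38 (mm10), Rasgrf2 (ENSMUSG00000021708.17) spans 91880400 to 92131656 of chromosome 13 on the minus strand. No other annotated gene overlaps it. The nearest tested genes on both sides were Zcchc9, 72.7 kb away, and Msh3, a mismatch repair gene 80.2 kb away. Zcchc9 differed by 0.18 ± 0.18 (limma adjusted p = 0.710) and Msh3 by -0.08 ± 0.19 (adjusted p = 0.851), so neither neighbour passed the test.

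The 250 bases before the RefSeq start of Rasgrf2 and of Rasgrf1 are printed because Rasgrf2 carries the difference between the groups, and its paralogue serves as a comparison. The Rasgrf2 window is chr13:92131829-92132078 (minus strand) and the Rasgrf1 window chr9:89909525-89909774 (plus strand), both from RefSeq on GRCm38.p6, written 5′ to 3′. Capitals mark matches to the motifs searched.
Rasgrf2: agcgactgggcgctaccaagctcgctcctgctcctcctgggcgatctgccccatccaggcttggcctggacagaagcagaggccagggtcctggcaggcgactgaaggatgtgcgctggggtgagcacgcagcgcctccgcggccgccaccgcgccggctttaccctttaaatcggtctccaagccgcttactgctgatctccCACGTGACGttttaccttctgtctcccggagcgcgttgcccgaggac
Rasgrf1: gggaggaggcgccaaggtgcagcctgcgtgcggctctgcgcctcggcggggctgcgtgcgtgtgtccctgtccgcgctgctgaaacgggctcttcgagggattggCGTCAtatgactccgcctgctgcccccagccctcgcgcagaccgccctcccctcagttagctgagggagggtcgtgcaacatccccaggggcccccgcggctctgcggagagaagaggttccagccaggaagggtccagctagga
The Rasgrf2 window holds the E-box CACGTG, which starts 47 bases before the RefSeq start. It also holds the cyclic AMP response element (CRE) core TGACG, which starts at 43 bases and shares 2 bases with the E-box. The Rasgrf1 window holds the CRE core on the opposite strand, 145 bases before its RefSeq start. The GENCODE starts, 92131656 for Rasgrf2 and 89909908 for Rasgrf1, differ from the RefSeq starts and lie further downstream. Of 32536 promoter windows of the same length, 6.04% held CACGTG and 17.9% held TGACG on either strand. Neither window matched the full CRE TGACGTCA (1.56% of windows; it contains the core), the AP-1 site TGANTCA (6.73%), the EGR and WT1 box GCGNGGGCG (4.74%) or the T-box site AGGTGTGA (1.12%). Over the 9 members with a window, CACGTG occurred in Rasgrf2 and Rasal3, TGACG in Rasgrf1, Rasgrf2 and Rasal3, and the EGR and WT1 box in Sos2. The Rasgrf2 window has a GC content of 65.2% and 22 CG dinucleotides, and that of Rasgrf1 69.2% and 21. A match describes letters in the window and not binding.

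Rasgrp3 and Rasgrp1 encode the diacylglycerol-dependent exchange factors that couple the B cell antigen receptor to Ras, and they had the highest levels among the exchange factors. Rasgrp3 stood at 393, 411 and 363 CPM in WT and at 355, 339 and 384 CPM in KO. The ranges of the groups overlapped, since KO was lower in pairs 1 and 2 and higher in pair 3. Its paired differences of -0.15, -0.28 and 0.08 gave a mean of -0.11 ± 0.18 on the log2 scale. Rasgrp1 stood at 130, 125 and 113 CPM in WT and at 106, 110 and 121 CPM in KO. It had the same signs in the 3 pairs, with differences of -0.29, -0.19 and 0.09 and a mean of -0.13 ± 0.20. Rasgrp1 is also the main exchange factor of T cells. The T cell markers Cd3e and Bcl11b were at the floor in all 6 libraries, and 2 of 11 T cell markers reached 1 CPM (Cd2 and Lat). Their list summed to 130 to 148 CPM in WT and 112 to 128 CPM in KO, most of it from Cd2 alone. Cd2 averaged 6.95 log2 CPM over the 6 libraries and Lat 1.96. The part of this list in the Rasgrp1 values was not tested.

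Rasgrp2 encodes CalDAG-GEFI, which acts mainly on Rap1 and is best known from platelets. It stood at 53.6, 47.6 and 50.6 CPM in WT and at 43.4, 48.8 and 46.0 CPM in KO, and the groups overlapped through KO 2. The mean difference was -0.14 ± 0.17 on the log2 scale. Of 8 platelet markers 1, Itgb3, reached 1 CPM; their sum was 41.7 to 43.1 CPM in WT and 43.7 to 44.9 CPM in KO. Rasgrp4, an exchange factor of mast cells and neutrophils, stood near 1 CPM, at 1.80, 1.58 and 1.17 CPM in WT and 1.00, 1.15 and 1.55 CPM in KO. Its differences of -0.85, -0.46 and 0.40 had a mean of -0.30 ± 0.64, and the groups overlapped. Of 7 mast cell markers 6 were at the floor in all libraries, and none reached 1 CPM. Rasgrp4 shares 978 bases of exon with Fam98c on the opposite strand, which averaged 3.92 log2 CPM. Whether reads were counted by strand is not stated, so within the shared bases Rasgrp4 reads cannot be told apart from Fam98c reads. The exons of Rasgrp4 cover 6363 bases in all.

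Sos1 and Sos2 encode the exchange factors that GRB2 recruits. Sos1 stood at 6.20, 5.76 and 5.86 CPM in WT and 5.17, 5.56 and 5.47 CPM in KO. Each KO value lay below each WT value, by a small margin, with a mean difference of -0.14 ± 0.11 on the log2 scale. Sos2 stood at 6.30, 6.46 and 5.09 CPM in WT and 5.59, 5.45 and 6.92 CPM in KO. The groups overlapped in part, with WT 3 the lowest and KO 3 the highest library, and the mean difference was 0.01 ± 0.38, with pair 3 (0.44) against pairs 1 and 2 (-0.17 and -0.25). In log2 CPM, the Sos1 value minus the Sos2 value ran from -0.34 to 0.20 over the 6 libraries.

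The GAPs had the smallest SD over the 6 libraries among the 10 genes, 0.06 each on the log2 CPM scale. Rasa1 encodes the GAP that binds phosphotyrosine through SH2 domains. It stood at 50.9, 52.9 and 51.4 CPM in WT and 49.2, 47.4 and 48.7 CPM in KO. Its KO values all lay below its WT values, with a difference of -0.10 ± 0.05 on the log2 scale. The gene shares 12 bases of exon with Ccnh on the opposite strand. Rasal3, a GAP of blood cells, stood at 173, 164 and 158 CPM in WT and 154, 162 and 169 CPM in KO, with overlapping groups and a difference of -0.03 ± 0.13. An annotated antisense gene shares 635 bases of exon with it.

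Of the 10 members 9 were tested, and 1 of these, Rasgrf2, was among the called genes (11.1% of those tested, beside 0.266% of all genes; the choice of members used this contrast, and nothing is read from the count). Without pair 2 Rasgrf2 was not among the called genes, and its difference was 1.18. The other 8 tested members had limma adjusted p-values between 0.702 and 0.997 and mean differences of at most 0.30 in size on the log2 scale. A p that misses the threshold does not show that the levels were equal. KO and WT did not overlap in 3 tested members, Rasgrf2 (KO above WT), Sos1 and Rasa1 (KO below WT), beside 27.7% of all tested genes, 15.2% with KO above and 12.5% with KO below WT. In all, 7 of the 9 were lower in KO and the median difference was -0.11, beside 0.00 over all tested genes, of which 48.7% were lower. The pairs differed: 8 of 9 were lower in pair 1, 7 in pair 2 and 3 in pair 3. Of all tested genes, 49.0%, 47.5% and 48.7% were lower in those pairs. The nuclear non-coding RNA list, mostly Malat1, differed by -0.35, -1.09 and 0.37 (log2 ratio of summed CPM) in the same pairs. Its part in these member values was not tested.

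**Figure D2:**
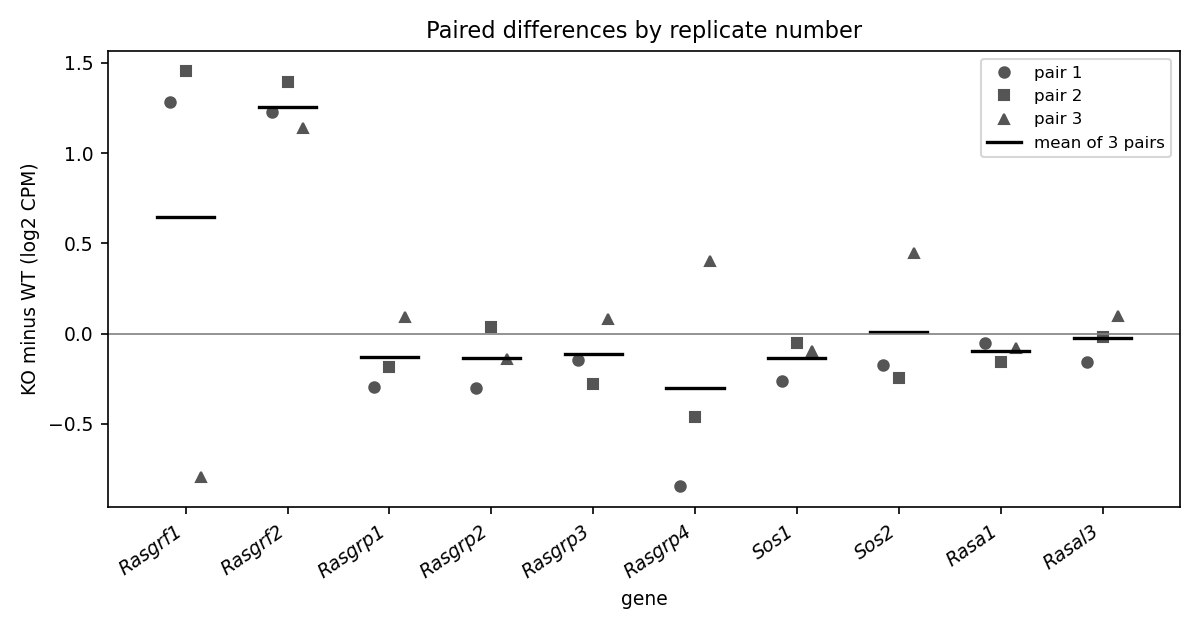
KO minus WT difference of each gene (y axis, log2 CPM) by replicate number (circles, pair 1; squares, pair 2; triangles, pair 3) with the mean of 3 pairs (bar). The Rasgrf2 points lie between 1.14 and 1.40, the Rasgrf1 points between -0.79 and 1.45, and pair 3 is the highest point for Rasgrp1, Rasgrp3, Rasgrp4, Sos2 and Rasal3.

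Levels of different genes were compared per kilobase (kb) of exon. The geometric means over the 6 libraries were 63.9 CPM per kb for Rasgrp3, 33.3 for Rasal3, 20.9 for Rasgrp1, 6.84 for Rasa1 and 3.89 for Rasgrp2. There followed Sos2 with 0.697, Sos1 with 0.535, Rasgrf2 with 0.311, Rasgrp4 with 0.211 and Rasgrf1 with 0.00870 CPM per kb. The ranges over the 6 libraries of neighbours in this order overlapped for Sos1 with Rasgrf2 and for Rasgrf2 with Rasgrp4, and were separate for each other pair of neighbours. Both overlaps involve Rasgrf2, whose place depended on the group. In WT its 0.201 CPM per kb was close to the 0.235 of Rasgrp4, and in KO its 0.480 was close to the 0.510 of Sos1. Exonic lengths, from 4.90 kb (Rasal3) to 12.4 kb (Rasgrp2), joined all annotated exons of a gene and may exceed those of the transcripts present.

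Rasgrf2 remained a minor part of the exchange factor transcripts in both groups. Of the summed CPM per kb of the 8 exchange factors, Rasgrf2 made up 0.211%, 0.195% and 0.238% in the WT libraries and 0.561%, 0.605% and 0.496% in the KO libraries. Rasgrp3 made up 70.6% ± 0.98 (SD, n = 3) in WT and 70.6% ± 0.99 in KO, and Rasgrp1 23.2% ± 0.67 and 23.0% ± 0.66. The sum itself was 96.6, 98.3 and 88.0 CPM per kb in WT and 84.9, 83.4 and 93.1 in KO, and the groups overlapped. These values depend on the joined exonic lengths, which the SDs do not cover. Rasgrp2 made up 4.35% in WT and 4.28% in KO at a joined length of 12.4 kb. A shorter length would raise its share, lower the others and could change its place in the order above.

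**Figure D3:**
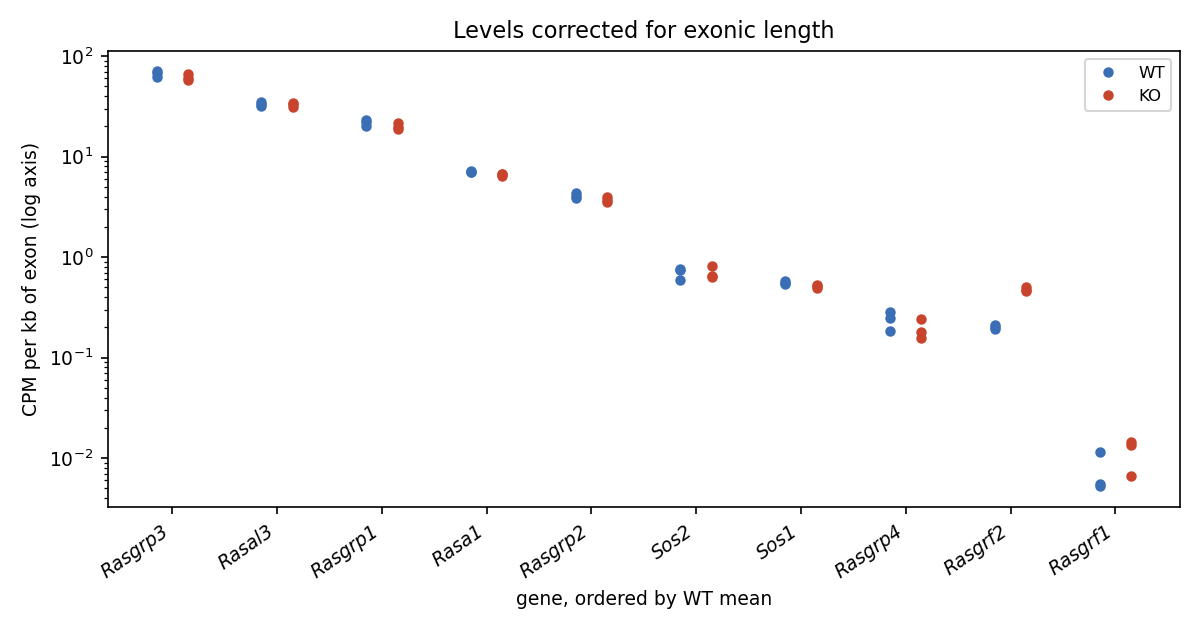
Level of each gene divided by its exonic length (y axis, CPM per kb of exon, log axis) in the 3 WT and 3 KO libraries (points), ordered by the WT mean. Rasgrp3 is highest at 66.5 in WT and Rasgrf1 lowest at 0.00695. Rasgrf2 lies beside Rasgrp4 in WT and beside Sos1 in KO.

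The 5 tested genes with paired differences closest to those of Rasgrf2 were Grb7, Cxcr3, Tgtp2, Rpph1 and Jun. The likeness is the root mean square distance over 3 paired log2 differences, and it was 0.0740, 0.243, 0.295, 0.361 and 0.413. Grb7, an SH2 adaptor, differed by 1.29, 1.29 and 1.18 in pairs 1, 2 and 3, at 0.847 CPM in WT and 2.02 CPM in KO. Cxcr3, a chemokine receptor gene, differed by 1.52, 1.13 and 1.27, and Jun, an AP-1 subunit, by 1.13, 1.01 and 0.54. With 3 values per gene and the size of the difference as the main part of the distance, this order describes these libraries only.

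The rest of the Ras to ERK pathway was followed through 133 other genes in 6 groups by function, of which 130 were matched by symbol and 98 were tested. In limma 2 of the 98 rose and 0 fell at 5% FDR, beside 0.168% higher and 0.0987% lower among all tested genes, and 8 had an unadjusted p under 0.05, as had 8.82% of all tested genes. Both genes that rose, Egr2 and Jun, were known from earlier results of these data when the list was made. The median difference over the 98 was -0.04 on the log2 scale, with 59 lower and 39 higher in KO. Over all tested genes the median was 0.00 and 48.7% were lower.

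Upstream of the exchange factors, 28 genes of calcium, diacylglycerol and adaptor signalling were tested, and none passed 5% FDR (2 had an unadjusted p under 0.05). The KO mean was lower in 22 of them, with a median of -0.07, beside 48.7% lower and a median of 0.00 over all tested genes. The group's median was -0.08 in pair 1, -0.10 in pair 2 and, with the opposite sign, 0.06 in pair 3. The nuclear non-coding RNA list, mostly Malat1, had the same signs in these pairs, and its part in the group's values was not tested. The smallest p-values belonged to Dgke and Dgkz, diacylglycerol kinases that end the diacylglycerol signal, and to Itpr3, a calcium release channel. Dgke was 13.1 CPM in WT and 10.1 CPM in KO and differed by -0.24, -0.37 and -0.52 (limma adjusted p = 0.338). Dgkz was 67.4 and 57.9 CPM and differed by -0.19, -0.33 and -0.14 (limma adjusted p = 0.364). Neither passed the test. In both genes all 3 KO values lay below all 3 WT values, as in 12.5% of all tested genes. Itpr3 differed by -0.16 ± 0.30. Named outside the rule because calmodulin regulates RasGRF proteins, Calm2 and Calm3 differed by -0.07 ± 0.10 and -0.03 ± 0.08. Likewise Grb2, the adaptor of SOS, differed by -0.11 ± 0.06.

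Among the Ras and Rap GTPases 10 were tested and none passed 5% FDR (0 had an unadjusted p under 0.05). Rap2c differed by 0.10 ± 0.07 and Ralb by -0.07 ± 0.24. The 13 tested further exchange factors with a CDC25 domain, which act on Rap, Ral or Ras, gave no call in limma and 2 unadjusted p-values under 0.05. The KO mean was lower in 10 of them, beside 48.7% of all tested genes. Rasgef1b, an exchange factor induced by inflammatory signals in macrophages, differed by 0.40 ± 0.33 (adjusted p = 0.331). Rapgef1, which acts on Rap1, differed by -0.24 ± 0.21 (adjusted p = 0.344), and Ralgps2, which acts on Ral, by -0.14 ± 0.11. Of 7 tested further GAPs and related inhibitors none passed in limma (0 had an unadjusted p under 0.05). The smallest p-values were those of Dab2ip (-0.46 ± 0.37), Iqgap1 (-0.10 ± 0.16), a scaffold with a GAP-like domain, and Rasa3 (-0.11 ± 0.16).

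Below Ras, none of 17 tested RAF, MEK and ERK kinases and scaffolds passed in limma (0 had an unadjusted p under 0.05), and the median was 0.02. Map2k1, which encodes MEK1, differed by 0.13 ± 0.06, Mknk2 by -0.31 ± 0.39 and Rps6ka3 by -0.33 ± 0.29. In the last group, of ERK feedback regulators and early target genes, 2 of 23 rose (0.168% of all tested genes did) and 4 had an unadjusted p under 0.05 (8.82% of all). Both risen genes were known when the list was made, so the count is a description. Egr2, a zinc finger transcription factor, rose from 11.0 to 17.5 CPM, with paired differences of 0.70, 0.81 and 0.53 (limma adjusted p = 0.00366). Jun rose from 2.80 to 5.21 CPM (adjusted p = 0.0482). Without pair 2 neither was called, and without pair 1 Jun was not. Jund had the third smallest p and differed by -0.18 ± 0.11 (adjusted p = 0.311). Other early targets went different ways. Chosen after their values were seen, Dusp4, an ERK phosphatase, differed by 0.55 ± 0.29 (adjusted p = 0.331), Fos by -0.44 ± 0.08 (adjusted p = 0.726), and Dusp6, also an ERK phosphatase, by 0.01 ± 0.15.

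**Figure D4:**
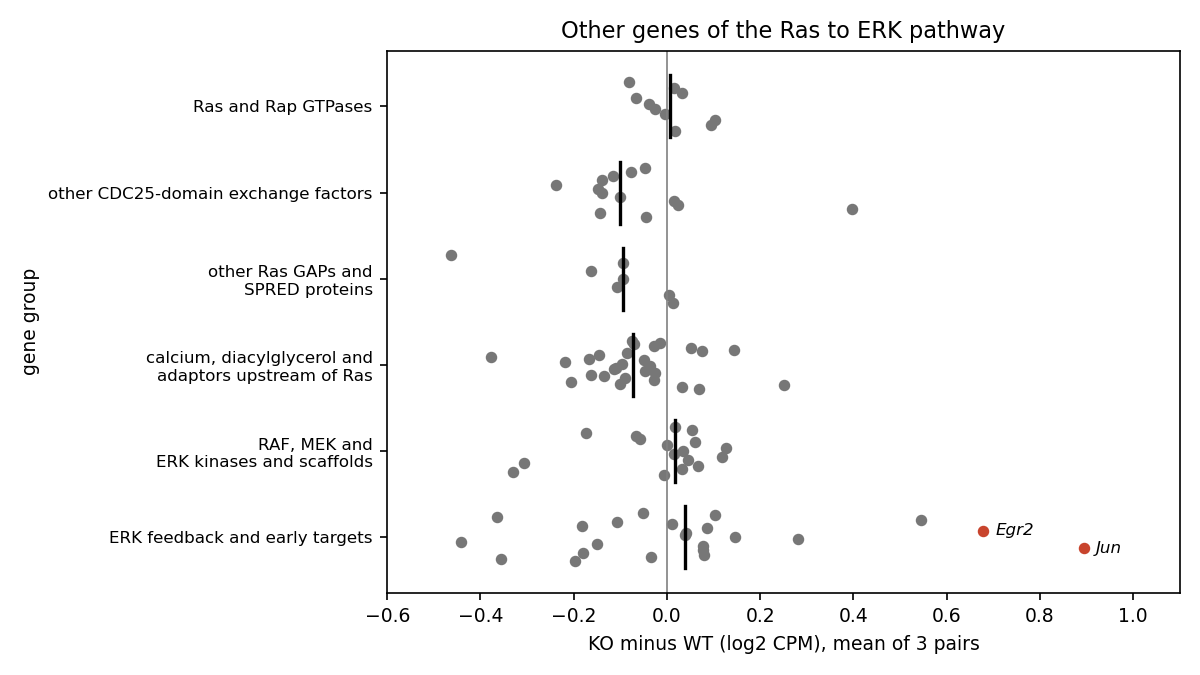
KO minus WT difference (x axis, log2 CPM, mean of 3 pairs) of the 98 tested genes of the Ras to ERK pathway, 1 point per gene, in 6 groups (rows); black lines are group medians. Red points passed 5% FDR in limma, Egr2 (0.68) and Jun (0.90), both in the group of ERK feedback and early targets.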

How the data were processed

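Messenger RNA libraries of sorted germinal centre B cells (3 KO, 3 WT) were prepared with Illumina TruSeq mRNA reagents, per the labels' protocols. Per the submitters' processing notes the authors used build mm10 and the tools STAR 2.6.1a, Subread 2.0.1, featureCounts, limma, Trim Galore 0.6.5 and FastQC 0.11.7. Their settings, order and strand handling are not stated there. The deposited log2 values were taken as log2 CPM because, made linear, they summed to 997617 CPM in the lowest and 1000513 CPM in the highest library.

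The comparison of KO and WT used limma 3.58.1 under R 4.3.3 (genotype and replicate number, variance trend, robust moderation, two-sided, Benjamini-Hochberg) over 10133 genes with a geometric mean of at least 1 CPM and unequal values. Each gene has 2 residual degrees of freedom and a median of 81.2 prior ones. Replicate number stayed in the model as a block because its effect had been removed from the values; the labels do not say what it stands for, and the equal sums fix the correlation within pairs, so pairing could not be checked. The fit was tested on simulated data.

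The members and all lists were chosen with earlier results of these data known. Named were Basp1, the members, pathway genes past 5% FDR, the 3 smallest p per pathway group, Egr2 and Jun, the 5 genes most like Rasgrf2 and its tested neighbours; some genes that this rule names are left out of the text. Exonic lengths came from GENCODE vM21 and promoter windows from RefSeq (GRCm38.p6), where 9 of 10 members matched.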

Additional observations from a re-analysis of the deposited data

How the results depend on the processing

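Rasgrf2 was chosen with its difference known, so its calls are described and not read as support. It was not among the called genes without replicate pair 2 or without the variance trend. A minimum of 4 CPM left it out of the fit. Its difference was 1.18 to 1.31 on leaving out a pair and 0.93 with a pseudocount of 1 CPM. No other member was called in the 12 alternatives. The other members' differences moved by less than their SD, but nothing is read from this, because the alternatives could hardly show otherwise. Leaving out a pair cannot shift a mean of so few pairs by their SD. The replicate block and the filters do not alter the mean difference, and centring shifts all genes alike. The pseudocount could alter it, and changed that of Rasgrp4 from -0.30 to -0.17. Leaving out 1 library equals leaving out its pair, since its partner then carries no information.

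The count of 27 genes over all genes became 142 without the replicate block (2 pathway genes, again Egr2 and Jun), 95 with no filter on low values, 12 with non-robust moderation and 4 in a test against a fold of 1.1. It was 0 without the variance trend (limma; 640 at an unadjusted p under 0.05) and 11 to 136 on leaving out a pair: 136 without pair 1 (27 higher, 109 lower), 11 without pair 2 (4 and 7) and 99 without pair 3 (28 and 71). The 2 pathway genes became 4 with no filter, 1 at a minimum of 4 CPM, 1 with non-robust moderation, 1 with an arithmetic mean in the filter (chosen after seeing the data), and 1 to 4 on leaving out a pair. The genes changed too, and those outside the naming rule were chosen after seeing the values. Without pair 1 Egr2 was higher and Dusp2, Mknk2 and Prkcb lower, without pair 2 the single call was Dusp2, lower, and with no filter Dusp2 and Mknk2 were called lower beside Egr2 and Jun. The count was 0 without the variance trend (limma, 7 unadjusted) and 0 against a fold of 1.1 (limma, 4 unadjusted). The fit without the replicate block counts degrees of freedom as free that the removal of replicate differences had used. Apart from this and the fewer genes or samples in some of these fits, the cause was not tested. Depth is unknown, and for genes near 1 CPM such as Rasgrp4 the spread between pairs limits what can be seen.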
